A study of Mus musculus with 8 samples.

Results

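Xcl1, Xcr1, Flt3l and Flt3 form 2 ligand and receptor pairs that link lymphocytes to dendritic cells, and they were read here by their gene symbols as 4 of the 33696 genes in single-cell mRNA libraries of tumour-bearing mouse liver. The tumours were hepatocellular carcinomas raised in 8- to 10-week-old male C57BL/6 mice by hydrodynamic tail vein injection, which forces plasmid DNA into hepatocytes. Every animal of both groups received the same plasmids, a CRISPR-Cas9 vector against the tumour suppressor gene Trp53, a transposon that carries c-Myc, and the transposase CMV-SB13. Livers were taken 4 to 5 weeks later. The knockout group (Ncr1iCre, Nr4a1fl/fl) expresses Cre from Ncr1, the gene of the receptor NKp46, so that floxed Nr4a1, which encodes the nuclear receptor Nur77, is deleted in cells that express Ncr1, chiefly natural killer (NK) cells and type 1 innate lymphoid cells (ILC1). The control group (Ncr1WT, Nr4a1fl/fl) carries the same floxed alleles without Cre. Each group had 3 mRNA libraries. Libraries 1 and 2 of each group are called biological replicates with no animals named, and library 3 pooled 2 mice in the knockout group and 3 mice in the control group, so p-values measure the spread between these libraries.

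XCL1 is a chemokine that activated NK cells and CD8 T cells release, and XCR1, its receptor, marks the type 1 conventional dendritic cell (cDC1), the subset best known for taking up dead cells and presenting their antigens to CD8 T cells. FLT3LG, the product of Flt3l, is a cytokine that binds the receptor tyrosine kinase FLT3 on dendritic cells and their progenitors and is needed for dendritic cells to develop and persist. In mouse tumours NK cells have been described as a source of both ligands, and cDC1 as the cells that answer them. Reads of these libraries mark the 3′ end of mRNA and say nothing of the secreted proteins.

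The cells kept numbered 2777, 134 and 5197 in knockouts 1, 2 and 3 and 2697, 549 and 10128 in controls 1, 2 and 3, with median depths of 1925 to 3914 unique molecular identifiers (UMIs, 1 per captured mRNA molecule). Knockout 2 and control 2 stood apart, since mitochondrial counts took a median 75.1% and 27.9% of their barcodes before filtering, against 6.68% to 10.0% in the other 4 libraries. No pair of libraries shared more than 15 barcodes. Each cell was called from UMIs of marker genes among which none of the 4 genes was counted. NK-like cells numbered 88, 35 and 151 in the knockout libraries and 265, 121 and 577 in the control libraries. T-like cells numbered 638, 6 and 880 in the knockout libraries and 265, 29 and 2947 in the control libraries. cDC1-like cells numbered 70, 2 and 80 in the knockout libraries and 80, 1 and 135 in the control libraries. The calls were checked on genes outside the marker lists. Ncr1 was read at 177, 558 and 267 CPM (the gene's UMIs over all UMIs of the class, on the usual CPM scale) in NK-like cells of the knockout libraries and at 745, 666 and 621 CPM in those of the control libraries. Batf3, a transcription factor cDC1 need, was read at 252 and 249 CPM in cDC1-like cells of knockouts 1 and 3 and at 210 and 226 CPM in those of controls 1 and 3. It did not mark cDC1-like cells alone. Mature dendritic cells of the same 4 libraries held 105, 197, 213 and 105 CPM of Batf3, and type 2 conventional (cDC2-like) cells 100, 61.5, 113 and 108 CPM. Nr4a1 UMIs were present in NK-like cells of all 3 knockout libraries, at 137, 6.98 and 66.8 CPM against 85.6, 32.5 and 53.1 CPM in the control libraries. Since 3′ reads do not show whether the floxed part is gone, knockout is used below as the label only.

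Each of the 4 genes had its own pattern over the cell classes. Over libraries with at least 10 cells of a class, Xcl1 was highest in ILC1-like cells, at 2848 ± 1245 CPM (SD, n = 3 libraries), followed by NK-like cells of neither subset at 1184 ± 774 CPM (n = 5, 702 UMIs in 129 cells) and conventional NK-like cells at 798 ± 304 CPM (n = 6), which did not differ beyond their spread. T-like subsets averaged less than these 3, at 426 ± 134 CPM in Trdc-positive cells without Trac (n = 4), 389 ± 74.6 CPM in Zbtb16-positive cells (n = 4), 314 ± 169 CPM in Cd8a- or Cd8b1-positive cells (n = 5) and 225 ± 181 CPM in Cd4-positive cells (n = 4). These 4 subsets did not differ beyond their spread. T-like cells given no subset averaged 381 ± 257 CPM (n = 5, 1580 UMIs in 1182 cells), inside the range of these 4. Foxp3-positive T-like cells, the regulatory subset, stood far below the other T-like subsets at 13.8 ± 12.1 CPM (n = 3), from 12 UMIs in 83 cells. Endothelial cells averaged 54.3 ± 88.2 CPM (n = 5), and basophils and mast cells had 28 UMIs in 218 cells, 25 of them in knockout 3. Every other called class, dendritic cells included, averaged at most 8.63 CPM.

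Xcr1 was read almost only in cDC1-like cells, at 293 ± 42.0 CPM (n = 4). The next class was mature dendritic cells, at 13.7 ± 19.6 CPM (n = 4), which rests on 3 UMIs in 92 cells. Flt3 was shared by the dendritic cell classes, at 206 ± 18.1 CPM in cDC1-like, 204 ± 78.4 CPM in mature, 138 ± 25.9 CPM in cDC2-like (all n = 4) and 131 ± 48.3 CPM in plasmacytoid (pDC-like) cells (n = 5). It was at 16.9 ± 3.71 CPM in monocytes (n = 4) and 12.8 ± 8.53 CPM in B cells (n = 5). Flt3l was spread over the NK and T subsets. The 7 named NK and T subsets averaged between 21.1 CPM, in Cd8a- or Cd8b1-positive T-like cells, and 37.9 CPM, in Zbtb16-positive T-like cells, with SDs of 10.8 to 16.9 CPM, so that their order cannot be read. Basophils and mast cells were at the same height, 29.4 ± 25.5 CPM (n = 5), from 20 UMIs in 218 cells. Endothelial cells followed at 10.9 ± 5.96 CPM (n = 5), and cDC1-like cells, which carry the receptor, held 4.43 ± 1.26 CPM (n = 4).

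**Figure D1:**
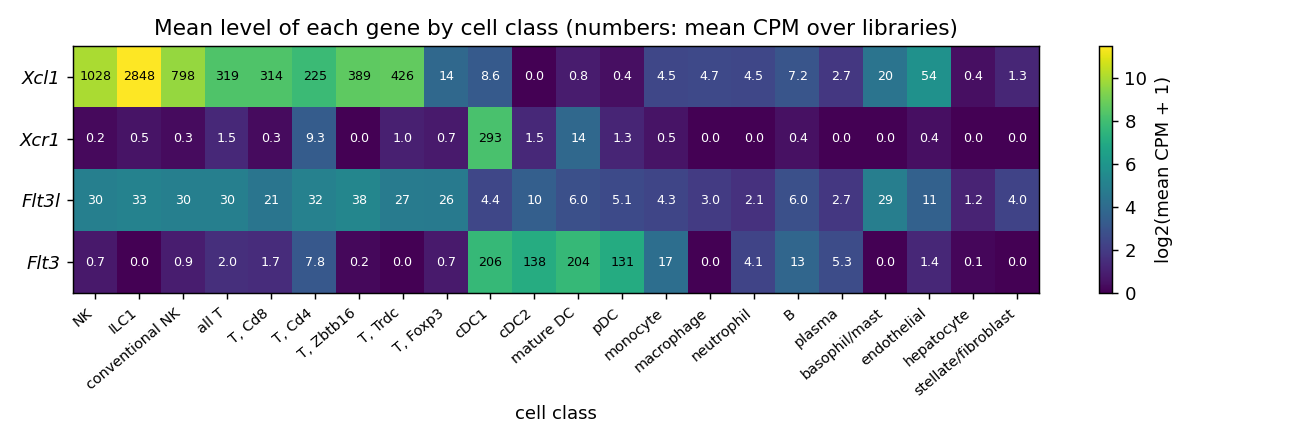
Mean level of Xcl1, Xcr1, Flt3l and Flt3 (rows) in each cell class (columns), in CPM of the class averaged over libraries with at least 10 cells, coloured on a log2(CPM + 1) scale. Xcl1 fills the NK and T columns except Foxp3-positive cells, Xcr1 the cDC1 column and Flt3 the 4 dendritic cell columns. Flt3l fills the NK and T columns and the basophil and mast cell column (29.4 CPM). Xcl1 also reached 54.3 CPM in endothelial cells, against 13.8 CPM in Foxp3-positive T-like cells.

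Within single libraries, NK-like cells held more Xcl1 than T-like cells in 5 of 5 libraries with at least 10 cells of both. The log2 difference was 1.87 (SE 0.19, adjusted p = 7.46e-07, edgeR quasi-likelihood test with the library as block and Benjamini-Hochberg adjustment over 10147 genes), where 25.6% of all genes tested passed, 13.1% higher and 12.5% lower in NK-like cells. Against Cd8a- or Cd8b1-positive T-like cells alone the log2 difference was likewise 1.87 (SE 0.21, adjusted p = 3.77e-09, edgeR, 5 of 5 libraries), where 19.2% of genes passed, 10.9% higher and 8.25% lower. Cells with markers of both NK and T cells, at 1429 ± 661 CPM of Xcl1, were in neither class. Their part in these 2 contrasts was not tested. ILC1-like cells in turn held more Xcl1 than conventional NK-like cells in 3 of 3 libraries, by 1.45 on the log2 scale (SE 0.16, adjusted p = 6.37e-06, edgeR), where 3.63% of genes passed, 2.13% higher and 1.5% lower. Flt3l passed in none of these 3 contrasts, with log2 differences of -0.08 (SE 0.16, adjusted p = 0.864) for NK-like minus T-like, 0.09 (SE 0.21, adjusted p = 0.856) for NK-like minus Cd8a- or Cd8b1-positive T-like and 0.11 (SE 0.40, adjusted p = 0.965) for ILC1-like minus conventional NK-like cells. T markers were not absent from ILC1-like cells. Summed over 12 T markers they reached 2325 CPM in those of knockout 3 and 1313 and 1373 CPM in those of controls 1 and 3, against 854, 774 and 764 CPM in conventional NK-like cells of the same libraries and 5085 to 6318 CPM in their T-like cells. Their part in the ILC1 difference was not tested.

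Between dendritic cells the receptors separated differently. Of Xcr1 there were 1278 UMIs in 365 cDC1-like cells, against 1 UMI in 134 cDC2-like cells, 1 UMI in 318 pDC-like cells and 3 UMIs in 92 mature dendritic cells. With so few UMIs outside cDC1-like cells, no fitted fold is given for Xcr1. Flt3 was higher in cDC1-like cells than in pDC-like cells by 1.26 (SE 0.21, adjusted p = 0.000149, 4 of 4 libraries). It was higher than in cDC2-like cells by 0.71 (SE 0.19, adjusted p = 0.0112, 4 of 4 libraries), a call that was lost without control 3 (0.59, adjusted p = 0.0747) or without knockout 1 (0.57, adjusted p = 0.0596). Against mature dendritic cells the Flt3 difference was 0.38 (SE 0.41, adjusted p = 0.543, 2 of 4 libraries). All were edgeR quasi-likelihood tests in which 25.8% of genes passed against cDC2-like cells (11.9% higher and 13.9% lower), 27.7% against pDC-like cells (13% and 14.7%) and 24.4% against mature cells (12.5% and 11.9%).

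In the knockout libraries Xcl1 in NK-like cells was not shown to differ from control. NK-like cells held 1136, 265 and 909 CPM of Xcl1 in knockouts 1, 2 and 3 and 1770, 936 and 1149 CPM in controls 1, 2 and 3. Each knockout library lay below the control library of its number, but knockout 1 lay above control 2, so the groups overlapped. The means were 770 ± 452 CPM in the knockout and 1285 ± 433 CPM in the control libraries (SD, n = 3 each), and the log2 fold change was -0.71 (SE 0.41, adjusted p = 1.00, edgeR quasi-likelihood test over 7671 genes). No gene passed in this comparison (0%), where 137 had an unadjusted p under 0.05 and DESeq2 called 1. With the replicate numbers, which paired the NK-like sums, as a block 8 genes passed, while Xcl1 stayed at -0.81 with an adjusted p of 0.376. A single cell held 257 of the 489 Xcl1 UMIs of control 2, whose NK-like cells stood at 475 CPM without it. With 1 library left out the fold change ranged over -1.09, without knockout 1, to -0.33, without knockout 2, on the log2 scale.

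The same direction was read in conventional NK-like cells alone, where Xcl1 was at 765, 248 and 755 CPM in the knockout libraries and at 1136, 921 and 962 CPM in the control libraries. All 3 knockout libraries were lower, but this separation rests on the same cell of control 2, which held 257 of 447 UMIs here. With the highest cell of every library left out, a step chosen after seeing the data, the levels were 693, 165.6 and 597 CPM in the knockout libraries and 1024, 421 and 936 CPM in the control libraries. The groups then overlapped. On the log2 scale the fitted fold change was -0.71 (SE 0.31, adjusted p = 1.00, edgeR), and 0% of the 6981 genes tested passed, 171 had an unadjusted p under 0.05 and DESeq2 called 1. In ILC1-like cells, 19 in knockout 3 and 36 and 96 in controls 1 and 3, Xcl1 stood at 2123 CPM in knockout 3 and at 4286 and 2136 CPM in the controls. With 1 knockout library of 10 cells or more there was no test. ILC1-like cells made up 7.95%, 2.86% and 12.6% of NK-like cells in the knockout libraries and 13.6%, 4.96% and 16.6% in the control libraries, lower in each knockout library than in the control of its number. These shares rest on few cells, 7, 1 and 19 in the knockout libraries and 36, 6 and 96 in the control libraries. The 12 T markers summed to 887, 551 and 1079 CPM in NK-like cells of the knockout libraries, with 12, 9 and 10 of the 12 detected, and to 868, 616 and 872 CPM in those of the control libraries, with 9, 10 and 12 detected. The part of these values in the Xcl1 levels was not tested.

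**Figure D2:**
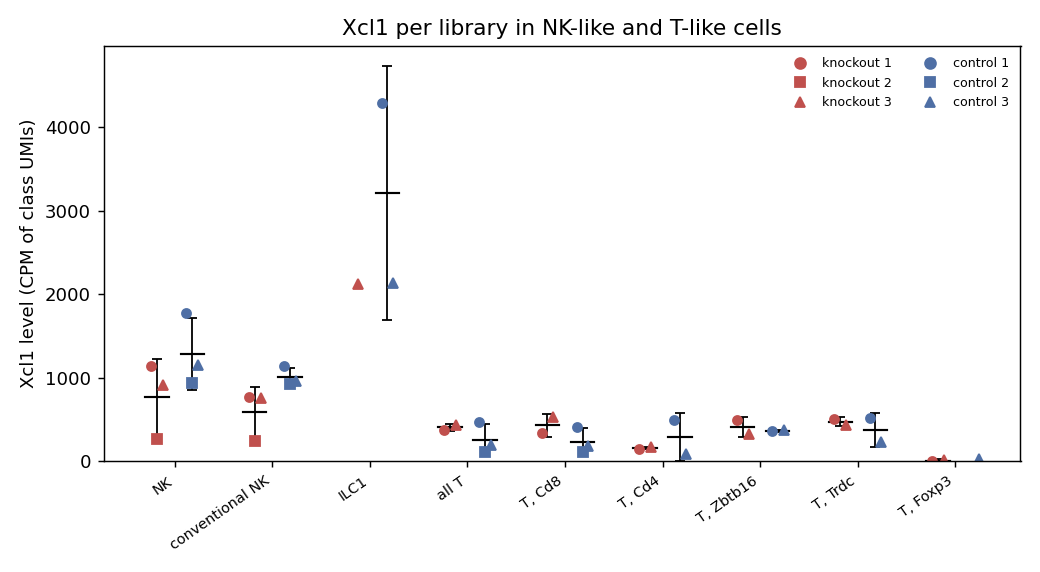
Xcl1 in CPM of the class (y axis) in NK-like and T-like classes (x axis), knockout left of control. Each point is 1 library with at least 10 cells of the class, the lines are group means and the bars SDs. In conventional NK-like cells the 3 knockout libraries (248 to 765 CPM) lie under the 3 control libraries (921 to 1136 CPM), where 1 cell holds 257 of the 447 UMIs of control 2, and in T-like cells the groups overlap.

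NK-like cells with at least 1 Xcl1 UMI made up 67.0%, 22.9% and 57.6% in the knockout libraries and 68.3%, 43.0% and 62.7% in the control libraries, at median depths of 6095, 1985 and 3918 UMIs and of 4006, 3139 and 5174 UMIs. With each cell thinned to 1000 UMIs, which left out 1, 4 and 4 knockout cells and 5, 7 and 6 control cells, the shares were 37.9%, 9.68% and 37.4% in the knockout and 45.0%, 21.1% and 41.0% in the control libraries. B cells, which should lack Xcl1, had a UMI in 0.523% and 1.04% of cells of knockouts 1 and 3 and in 0% and 2.13% of cells of controls 1 and 3, at median depths of 3104 and 2226 UMIs and of 1845 and 2919 UMIs. The 0 of 283 B cells in control 1 allows a share of up to 1.06%.

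T-like cells gave the opposite sign without passing. Xcl1 stood at 375 and 439 CPM in T-like cells of knockouts 1 and 3 and at 472, 112 and 200 CPM in those of controls 1, 2 and 3, while knockout 2, with 6 T-like cells and 0 UMIs of Xcl1, could not enter. Both knockout libraries lay between the control libraries. On the log2 scale the fitted fold change was 0.59 (SE 0.43, adjusted p = 1.00, edgeR over 12086 genes, of which 0% passed, 300 had an unadjusted p under 0.05 and DESeq2 called 1), and with 1 library left out it ranged over 0.29, without control 2, to 1.31, without control 1. In Cd8a- or Cd8b1-positive cells Xcl1 stood at 335 and 527 CPM in knockouts 1 and 3 and at 414, 108 and 187 CPM in the controls, the fitted log2 fold change being 0.80 (SE 0.40, adjusted p = 1.00, edgeR), where 0.0805% of 9935 genes passed. Hashtags mark the mice of the pooled libraries. T-like cells given to a mouse stood at 590 and 206 CPM of Xcl1 for the 2 mice of knockout 3. For the 3 mice of control 3 they stood at 229, 129 and 371 CPM. NK-like cells of the same mice held 926 and 1047 CPM in knockout 3 and 939, 1141 and 1176 CPM in control 3. These values leave out 1283 unassigned cells of knockout 3 and 977 unassigned cells and 687 multiplets of control 3. In knockout 3 multiplets could not be told apart, so its mice may hold cells of both.

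The 2 effects were then set against each other in 1 model. The knockout effect on Xcl1 in NK-like minus that in T-like cells was -1.03 on the log2 scale (SE 0.25, adjusted p = 0.253, edgeR with the library as block, 2 knockout and 3 control libraries), where 0.138% of 10147 genes passed. It passed without control 1 (-1.35, adjusted p = 5.56e-06, same edgeR model), so the call rests on which libraries are in the fit. Without knockout 1 the value was -1.34, with knockout 3 as the only knockout library, so no p-value is given. For Flt3l the difference was 0.18 (SE 0.34, adjusted p = 1.00).

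Where the Xcl1 UMIs sat also varied from library to library. NK-like cells held 34.5%, 100% and 25.9% of the Xcl1 UMIs of all called cells in knockouts 1, 2 and 3 and 83.1%, 97.6% and 56.8% in controls 1, 2 and 3. T-like cells held 65.3%, 0% and 61.5% in the knockout and 16.7%, 2.20% and 37.7% in the control libraries. In knockouts 1 and 3 T-like cells thus held more of the Xcl1 UMIs than NK-like cells, and in each control library NK-like cells held more. NK-like cells made up 4.66%, 46.7% and 5.81% of called blood cells in the knockout and 21.6%, 47.1% and 8.36% in the control libraries, and the part of these cell numbers in the Xcl1 shares was not tested. Knockout 2 had only 38 Xcl1 UMIs in called cells.

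**Figure D3:**
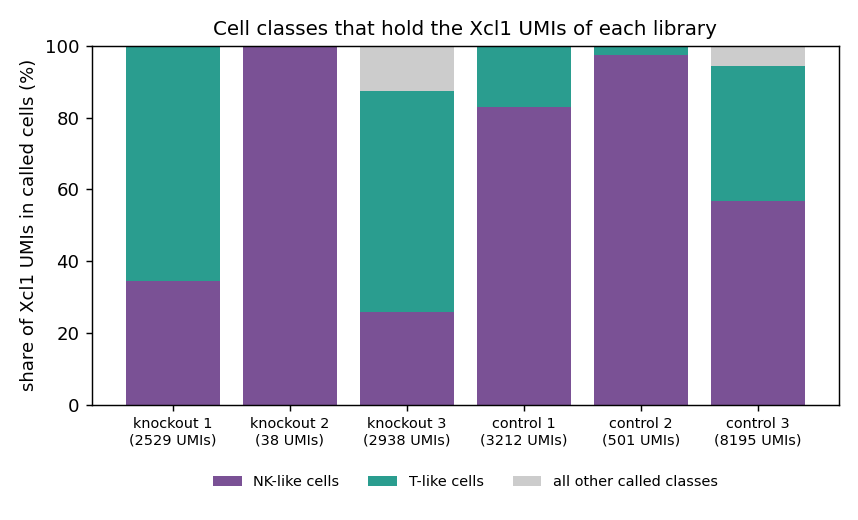
Share of the Xcl1 UMIs of called cells (y axis, %) held by NK-like, T-like and all other called cells in each library (x axis, with the number of UMIs). NK-like cells hold 34.5% and 25.9% in knockouts 1 and 3, 100% of 38 UMIs in knockout 2, and 56.8% to 97.6% in the 3 control libraries.

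Cells with markers of more than 1 class stayed out of these sums. Those with markers of both NK and T cells numbered 51, 0 and 49 in the knockout libraries and 33, 7 and 182 in the control libraries. They averaged 1429 ± 661 CPM of Xcl1 (n = 4 libraries), with 968 and 1731 CPM in knockouts 1 and 3 and 2215 and 803 CPM in controls 1 and 3. How the knockout comparisons of Xcl1 would read with these cells included was not tested. All other mixed cells averaged 84.6 ± 61.0 CPM (n = 5). All kept cells together held 3210, 39 and 3903 Xcl1 UMIs in the knockout libraries, of which 2529, 38 and 2938 were in called cells, and 4229, 518 and 12170 in the control libraries, of which 3212, 501 and 8195 were. Some called cells of other classes carried Xcl1 together with lymphocyte markers. In endothelial cells of knockout 3, 13 cells with at least 3 NK or T markers held 271 of the 274 Xcl1 UMIs, and in those of control 3, 15 such cells held 156 of 170. In cDC1-like cells 38 of the 43 Xcl1 UMIs sat in 2 such cells, 1 in knockout 3 and 1 in control 3.

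Xcl1 was concentrated in few cells. The 10% of NK-like cells with the most Xcl1 held 61.2%, 84.2% and 62.6% of its UMIs in the knockout libraries and 59.1%, 84.9% and 55.1% in the control libraries. The median NK-like cell had 0 to 3 UMIs while the highest had up to 257. In T-like cells the top 10% held 80.9% and 87.5% in knockouts 1 and 3 and 78.6%, 81.8% and 92.4% in the control libraries. The top 10% of NK-like cells was set beside the other NK-like cells in the libraries where it had at least 10 cells, knockout 3 and controls 1, 2 and 3. These cells were deeper, at a median of 5415 UMIs against 3764 in knockout 3 and of 9672, 7087 and 10292 against 3553, 2883 and 4841 in the controls. ILC1-like cells made up 31.3% of them against 10.4% of the others in knockout 3, and 51.9%, 7.69% and 32.8% against 9.24%, 4.63% and 14.8% in the controls. Of the 12 signals to dendritic cells on the list, 3 (Ccl3, Ltb and Tnfsf14) were higher in the top 10% in all 4 libraries, 1 (Ccl5) was lower in all 4, and 8 were neither, among them Ccl4, Ifng and Tnf. Csf1, Cd40lg and Tnfsf11 were also among the 8, on very few UMIs. Csf1 had 0 UMIs in the top 10% of each library. In control 3 Cd40lg had 0 UMIs in the top 10% and 2 in the others, and Tnfsf11 had 1 and 0. The share of all genes higher or lower in all 4 libraries was not counted, so these counts have no background beside them. Ccl3, an inflammatory chemokine gene, stood at 193.2 CPM in the top 10% and 133 CPM in the others in knockout 3, and at 303, 114 and 201 CPM against 170, 92.2 and 134 CPM in the controls. Tnfsf14, the gene of the cytokine LIGHT, stood at 69.6 CPM in the top 10% and 11.3 CPM in the others in knockout 3, and at 13.9, 22.7 and 36.1 CPM against 8.19, 15.4 and 13.1 CPM in the controls. Ltb, the gene of lymphotoxin beta, stood at 201 against 109 CPM in knockout 3 and 230, 174 and 289 against 152, 141 and 196 CPM in the controls. Ccl5, a chemokine gene that NK cells express at rest, stood at 5912 against 7858 CPM in knockout 3 and 1280, 4849 and 2683 against 6233, 7440 and 6133 CPM in the controls. Nr4a1 itself was higher in the top 10% in 3 of 4 libraries, at 170 against 48.0 CPM in knockout 3 and 52.2, 45.5 and 78.1 against 93.4, 28.2 and 47.9 CPM in the controls. These are descriptions of cells chosen by their Xcl1 UMIs, on few UMIs of Nr4a1 (22 in the 16 cells of knockout 3), and were not tested.

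Flt3l in NK-like cells was not shown to differ between the groups. It stood at 26.1, 41.9 and 33.4 CPM in the knockout libraries and at 23.2, 26.8 and 26.6 CPM in the control libraries, from 20, 6 and 28 UMIs and 35, 14 and 108 UMIs. Knockouts 2 and 3 lay above all controls and knockout 1 among them. On the log2 scale the fitted fold change was 0.28 (SE 0.27, adjusted p = 1.00, edgeR). In T-like cells Flt3l stood at 29.1 and 28.4 CPM in knockouts 1 and 3 and at 35.1, 30.4 and 25.5 CPM in controls 1, 2 and 3, the fitted log2 fold change being 0.00 (SE 0.23, adjusted p = 1.00, edgeR), whose sign flips with the scaling used. T-like cells held 67.4% and 49.2% of all Flt3l UMIs of called cells in knockouts 1 and 3 and 32.8%, 12.5% and 58.8% in controls 1, 2 and 3. NK-like cells held 10.5%, 75.0% and 11.8% in the knockout libraries and 28.7%, 58.3% and 16.1% in the control libraries, the highest shares being those of knockout 2 and control 2, with 8 and 24 UMIs in all.

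Xcr1 in cDC1-like cells was not shown to differ between the groups. It stood at 355 and 268 CPM in knockouts 1 and 3 and at 283 and 266 CPM in controls 1 and 3, from 392 and 238 UMIs and from 212 and 436 UMIs. Knockout 1 was highest, knockout 3 lay between the controls, and the groups overlapped. On the log2 scale the fitted fold change was 0.19 (SE 0.22, adjusted p = 1.00, edgeR over 7758 genes, of which 0% passed, 239 had an unadjusted p under 0.05 and DESeq2 called 1). An Xcr1 UMI was present in 62.9% and 65.0% of cDC1-like cells in knockouts 1 and 3 and in 56.3% and 63.7% in controls 1 and 3, and in 20.1% on average over these libraries with cells thinned to 1000 UMIs, against at most 0.353% of B cells in any library. Outside cDC1-like cells, T-like cells had 42 Xcr1 UMIs, of which 25 sat in 13 of 441 Cd4-positive cells, up to 9 in 1 cell, and none of these cells had 3 cDC1 markers. cDC1-like cells held 98.7% and 96.0% of all Xcr1 UMIs of called cells in knockouts 1 and 3 and 96.4% and 92.4% in controls 1 and 3. Knockout 2 and control 2, with 2 and 1 cDC1-like cells, had 0 Xcr1 UMIs in all their kept cells, which does not show that cDC1 were missing from those livers.

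The share of cDC1-like cells among called blood cells was 3.71%, 2.67% and 3.08% in the knockout libraries and 6.51%, 0.389% and 1.96% in the control libraries. The control libraries lay on both sides of the knockout libraries, and the means of 3.15% ± 0.523 and 2.95% ± 3.18 (SD, n = 3 each) did not differ beyond their spread (exact two-sided permutation test, p = 1, smallest possible 0.1).

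Flt3 was not shown to differ between the groups in any of the 4 dendritic cell classes. In cDC1-like cells it stood at 222 and 180 CPM in knockouts 1 and 3 and at 210 and 214 CPM in controls 1 and 3, the fitted log2 fold change being -0.06 (SE 0.22, adjusted p = 1.00, edgeR). In cDC2-like cells it stood at 116 and 160 CPM in knockouts 1 and 3 and at 160 and 114 CPM in controls 1 and 3, the fitted log2 fold change being -0.01 (SE 0.39, adjusted p = 1.00, edgeR), where 0.0338% of 2955 genes passed, and the sign of both values flips between settings. In pDC-like cells it stood at 114 and 122 CPM in knockouts 1 and 3 and at 101, 216 and 102 CPM in controls 1, 2 and 3, the 216 CPM resting on 6 UMIs in 12 cells, the fitted log2 fold change being 0.19 (SE 0.54, adjusted p = 1.00, edgeR over 6260 genes, of which 0% passed, 178 had an unadjusted p under 0.05 and DESeq2 called 5). In mature dendritic cells it stood at 277 and 179 CPM in knockouts 1 and 3 and at 255 and 105 CPM in controls 1 and 3, the fitted log2 fold change being 0.57 (SE 0.67, adjusted p = 1.00, edgeR over 2172 genes, of which 0% passed, 63 had an unadjusted p under 0.05 and DESeq2 called 0).

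**Figure D4:**
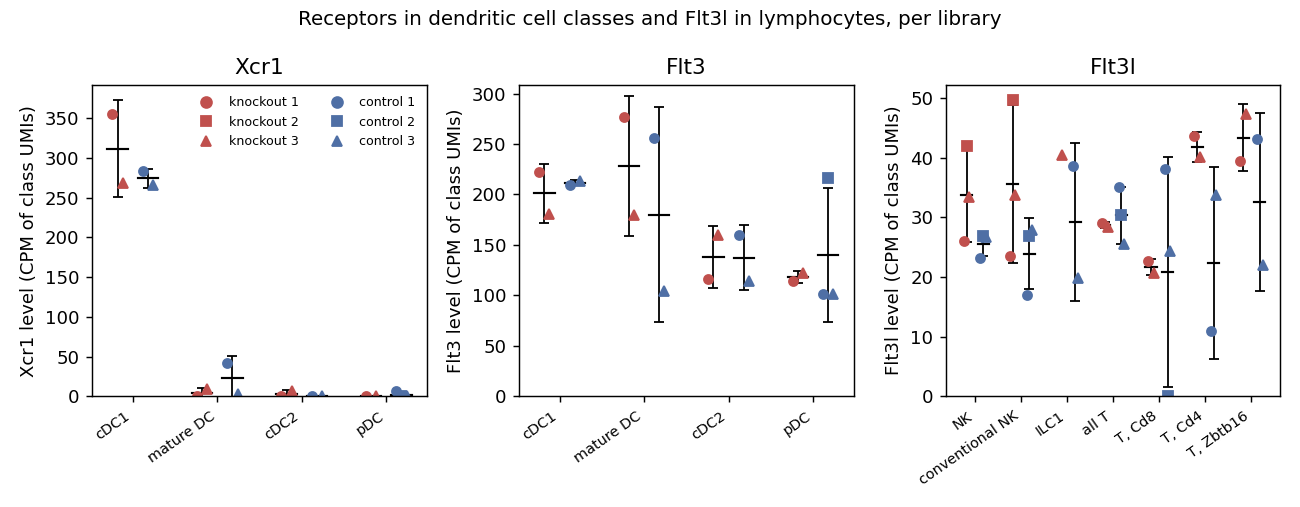
Levels in CPM of the class (y axes) of Xcr1 and Flt3 in 4 dendritic cell classes and of Flt3l in NK-like and T-like classes (x axes), knockout left of control. Each point is 1 library with at least 10 cells of the class, lines are group means and bars SDs. Xcr1 lies at 266 to 355 CPM in cDC1 cells and at most at 42.6 CPM in the other dendritic cells, and Flt3 in cDC1 cells at 180 to 222 CPM over both groups.

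Other genes of the same cross-talk were counted from 4 lists, and none of their members passed in NK-like, T-like or cDC1-like cells in edgeR or in DESeq2. Among 12 signals to dendritic cells, 7 were tested in NK-like cells, with a median log2 fold change of 0.07 against -0.00 over all genes tested. Of these, 0 had an unadjusted p under 0.05, against 137 of all 7671 genes tested. The smallest p were those of Ltb, at 114 ± 48.0 CPM in the knockout and 176 ± 32.4 CPM in the control libraries (log2 fold change -0.53, SE 0.28), and Ccl4, a chemokine gene, at 1138 ± 833 and 837 ± 336 CPM (0.46, SE 0.47). Among signals that dendritic cells give, Cxcl10, an interferon-induced chemokine gene, was read in NK-like cells at 225 ± 130 CPM in the knockout and 78.5 ± 19.9 CPM in the control libraries (1.33, SE 0.40, SD over n = 3 each, adjusted p = 1.00). Among genes of dendritic cell development, 7 of 11 were tested in NK-like cells, led by Bcl6, a transcriptional repressor, at 36.0 ± 4.11 and 58.3 ± 7.78 CPM (-0.72, SE 0.25, adjusted p = 1.00). Of 7 chemokine receptors of dendritic cells, 3 were tested in NK-like cells, with Cxcr3 at -0.45 (SE 0.36) and Ccr2 at -0.24 (SE 0.21).

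In T-like cells all 12 signals to dendritic cells were tested, with a median log2 fold change of 0.02 against 0.02 over all genes. Of these, 4 had an unadjusted p under 0.05, against 300 of all 12086 genes tested. Ccl5 stood at 3330 ± 68.2 CPM in the knockout (n = 2) and 8336 ± 3367 CPM in the control libraries (n = 3), the fitted log2 fold change being -1.23 (SE 0.37, adjusted p = 1.00), and Ccl4 at 253 ± 71.9 and 549 ± 168 CPM (-1.04, SE 0.33, adjusted p = 1.00). Among the receptors Cx3cr1, the fractalkine receptor of effector T cells, was at -1.37 (SE 0.31) and Ccr7, the homing receptor of naive T cells, at 0.64 (SE 0.27, adjusted p = 1.00 for both). In cDC1-like cells 4 of these signals to dendritic cells were tested, and 3 had an unadjusted p under 0.05, against 239 of all 7758 genes tested. Ccl5 stood at 14.8 ± 15.8 CPM in the knockout and 65.5 ± 5.54 CPM in the control libraries (n = 2 each, log2 fold change -2.19, SE 0.53, adjusted p = 1.00) and Ccl3 at 32.9 ± 15.7 and 8.77 ± 4.85 CPM (1.74, SE 0.49, adjusted p = 1.00). T-like cells held far more Ccl5, and the part of RNA from other cells in these cDC1-like levels was not tested. Of 10 tested genes of dendritic cell development, Zeb2 was at 0.93 (SE 0.48) and Ikzf1 at -0.38 (SE 0.26).

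The genes whose levels followed each member most closely were found by Pearson correlation of log2(CPM + 1) over 20 cell classes and 14388 genes, as a description with no test, since the classes share libraries. For Xcl1 they were Cd160 (0.963), a receptor of NK cells and ILC1 that was highest in ILC1-like cells, Fasl (0.948), the gene of the death ligand, and Apol7e (0.945). For Xcr1 they were Gpr33 (0.907), Tlr11 (0.851), a sensor of microbial profilin, and Gm38410 (0.821), all highest in cDC1-like cells. For Flt3l they were Cd226 (0.930), an activating receptor, Skap1 (0.925), an adaptor of T cell adhesion, and Ms4a4b (0.919), each highest in a T-like subset. For Flt3 they were Tnni2 (0.868), Htr7 (0.855) and Gm17089 (0.855), highest in dendritic cells at 205, 90.1 and 13.3 CPM.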

How the data were processed

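Whole-transcriptome 3′ single-cell mRNA libraries were deposited by the authors as raw UMI counts per gene and barcode, with gene and barcode name lists; per the file headers they were made with Cell Ranger 7.0.1 (libraries 1 and 2) and 9.0.1 (libraries 3), and the submitters' processing notes name GRCm39 and Cell Ranger 9.0.1. A barcode counted as a cell from 500 UMIs and 300 genes up, if mitochondrial UMIs did not exceed 20%. The files of libraries 1 and 2 held 1021 to 4592 barcodes, all with at least 500 UMIs. Those of control 3 and knockout 3 held 2207809 and 1715660 barcodes, of which 17415 and 8778 had at least 500 UMIs. In libraries 3 this rule alone set which barcodes were cells. A cell took the class with the highest share of its markers detected (15 classes, 140 markers, at least 3 markers), and a cell whose next class reached 0.7 of that share was left out as mixed. The ILC1-like and conventional NK-like subsets took at least 2 markers. T subsets took any UMI of their gene, with Foxp3 first, then Trdc without Trac, then Zbtb16. The remaining T-like cells were split into Cd8a- or Cd8b1-positive without Cd4, Cd4-positive without these, and no subset. No doublet caller was run, and hashtags gave cells of libraries 3 to mice as an alternative. Raw counts were summed per library and class where it had at least 10 cells, and tested across all genes with edgeR 4.0.16 (quasi-likelihood, TMM, filterByExpr, two-sided, Benjamini-Hochberg, 0.05) under R 4.3.3, with DESeq2 1.42.0 as an alternative. Levels are CPM of a class, and floors of 3 counts cover counting error only. Python 3.11.15, numpy 2.4.6, pandas 2.3.3, scipy 1.17.1 and matplotlib 3.10.9 were used, and the tests were tried on simulated data.

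The members, markers and lists were chosen with earlier results of these data known. Named genes were the 4 members, the 3 most correlated non-marker genes at 10 CPM or more in a class for each member, and the 2 smallest p of each list. Nr4a1, Ncr1 and Batf3, given as checks, and Tnfsf14, Ccl3, Ccl4, Ifng, Tnf, Csf1, Cd40lg and Tnfsf11 in the cells highest in Xcl1 fall outside this rule and were chosen after their values were seen. Replicate numbers come from the sample titles. Deviations of same-numbered NK-like sums correlated at 0.289, 0.280 and 0.258, which counted as paired. Alternatives were another scaling, no filter, DESeq2, stricter markers, mice as units, libraries left out and the replicate block.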

Additional observations from a re-analysis of the deposited data

How the results depend on the processing

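Over 31 results, 237 alternatives were run, and 182 kept direction and side of the threshold or, for the counts of genes changed, the count itself. No gene passed between knockout and control NK-like cells, against 1 with DESeq2, 24 with no filter on low counts, 8 with the replicate block, 1 without both libraries numbered 2, 1 with mice as units, 1 with mice and the block, and 0 to 1 with a library left out. For T-like cells the count was 0, against 1 with DESeq2, 21 with no filter and 48 with the replicate block. It was 1 with 4 markers required, 8 in CD8 cells only and 0 to 1 with a control library left out. It was 83 without knockout 3 and 10 without knockout 1. These 2 fits each set 1 knockout library against 3 control libraries. They have no replication in the knockout group, so their counts cannot be read as genes changed by the knockout. The T-like sums of libraries 1 and 3 correlated at 0.0191 and 0.294, so there the numbers are shared only.

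Flt3l in T-like cells (log2 fold change 0.00) was -0.027 with DESeq2, -0.0079 with RLE factors, -0.0084 with no filter, -0.029 with the replicate block, -0.018 without both libraries 2, -0.012 with 4 markers, -0.32 in CD8 cells only and -0.20 to 0.15 with a library left out. Flt3 was -0.17 to 0.024 in cDC1-like cells and, in cDC2-like cells, -0.33 to 0.27 with a library left out, 0.0010 with RLE factors, 0.34 with 4 markers, 0.055 in cells given to 1 mouse and 0.11 with mice as units. Flt3 in pDC-like cells was -0.092 with mice as units. With a library left out, Flt3l ranged over -0.19 to 0.045 (NK-like minus T-like), -0.31 to 0.75 (ILC1-like minus conventional), -0.070 to 0.24 (NK-like minus CD8) and -0.030 to 0.53 (interaction), Flt3 over 0.57 to 0.83 (cDC1-like minus cDC2-like) and the Xcl1 interaction over -1.35 to -0.79. The cDC1 share difference (0.198 percentage points) was -0.0989 with 4 markers, -0.842 without both libraries 2 and -1.08 to 1.98 with a library left out. Causes were not tested. Conventional NK only, CD8 only, mice with the block and the mature dendritic cell contrast were chosen after seeing the data. Depth sets the shares of cells with a UMI: thinned to 1000 UMIs, Flt3l fell to 3.37% of NK-like cells, against 14.2% unthinned, and Flt3 to 19.1% of cDC1-like cells, against 75.3%.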

Other observations

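In the other dendritic cells no member of the 4 lists passed between knockout and control either (edgeR and DESeq2). In cDC2-like cells Ccl5 averaged 57.2 ± 6.14 CPM in knockouts and 236 ± 111 CPM in controls (SD, n = 2 each, log2 fold change -2.04, SE 0.45, adjusted p = 0.807, edgeR). The part of RNA from other cells in these levels was not tested. In mature dendritic cells Ccl5 averaged 7075 ± 6384 CPM in knockouts and 4499 ± 822 CPM in controls (0.70, SE 0.99). Zeb2, a repressor that guides cDC2 and pDC development, averaged 1127 ± 542 CPM in knockout and 513 ± 79.0 CPM in control cDC2-like cells (log2 fold change 1.08, SE 0.40), and Zbtb46, a factor of conventional dendritic cells, 73.9 ± 0.0973 and 146 ± 45.0 CPM (-0.99, SE 0.41). In mature dendritic cells Il12b, which encodes a subunit of interleukin 12, averaged 1055 ± 224 CPM in knockouts and 570 ± 324 CPM in controls (0.74, SE 0.86).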
